A study of Homo sapiens with 8 samples.

Results

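The 2.5 Mb around *OTX2* on chromosome 14 were examined in the stitched H3K27Ac enhancers of 4 medulloblastoma (MB) lines. Every enhancer that overlapped the stretch from 56000000 to 58500000 of chromosome 14 (GRCh38) was taken, which gave 121 of the 88550 enhancers of the 4 lines. Of the genes in the stretch, 15 of them protein-coding, 6 were chosen as members, *OTX2*, its antisense gene *OTX2-AS1*, *EXOC5*, *CCDC198*, *SLC35F4* and *ACTR10*. It was chosen by the rank and the input signal of the *OTX2* enhancer and its surroundings, so its values describe the locus and were not tested. The study mapped H3K27Ac by ChIP-seq to compare super-enhancers (SEs) among MB lines. MB002, D425 and HD-MB03 are lines of Group 3 MB (G3-MB), and UW228 is labelled as a line of the SHH subtype. MB002 and HD-MB03 grew as cells in Tumor Stem Media, whereas D425 and UW228 grew in DMEM with fetal bovine serum, so medium and line cannot be told apart. Each line is a single culture model of its subgroup, with 1 library of H3K27Ac and 1 of input. Without replicates, no spread could be given. With 3 lines against 1, an exact one-sided permutation test could not go below p = 0.25, and none was run. The UW228 values also came from a ROSE run of a later date than those of the G3-MB lines, so date and subgroup cannot be told apart.

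OTX2 is a homeodomain transcription factor (TF) of the bicoid class, which patterns the forebrain and midbrain and specifies photoreceptors and the retinal pigment epithelium. In MB it is a known driver TF of the Group 3 and Group 4 subtypes, where it is expressed at high levels and keeps cells in an undifferentiated state. H3K27Ac marks active enhancers and promoters, and SEs are clusters of such enhancers with the highest signal in a cell. Input is sheared chromatin sequenced without an antibody, and its density follows how much DNA of a region enters a library.

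The sequences shown are promoters that lay inside an SE of some lines only, the *OTX2* promoter that lay inside one in 3 lines, and enhancer stretches shared by the G3-MB lines. They are given from 5′ to 3′, in lower case, with the letters TAATC, or GATTA on the other strand, in capitals. TAATC is the core of the sites that bicoid-class homeodomains recognise, and the longer form TAATCC contains it. The promoters are the 300 bases of RefSeq (GRCh38.p14) around a start site, and the table holds promoters of 5 of the 6 genes. The *OTX2* promoter at chr14:56810430-56810729, on the minus strand, lay inside the *OTX2* SE of all 3 G3-MB lines, and 50 of its bases are exonic. The second *OTX2* promoter, at chr14:56805618-56805917 on the minus strand, lay inside the SE of MB002 and HD-MB03 and outside that of D425. The *OTX2-AS1* promoter at chr14:56811756-56812055, on the plus strand, also lay inside the SE of MB002 and HD-MB03 and outside that of D425. The *SLC35F4* promoter at chr14:57866043-57866342, on the minus strand, lay inside an enhancer of MB002 only.
OTX2 promoter: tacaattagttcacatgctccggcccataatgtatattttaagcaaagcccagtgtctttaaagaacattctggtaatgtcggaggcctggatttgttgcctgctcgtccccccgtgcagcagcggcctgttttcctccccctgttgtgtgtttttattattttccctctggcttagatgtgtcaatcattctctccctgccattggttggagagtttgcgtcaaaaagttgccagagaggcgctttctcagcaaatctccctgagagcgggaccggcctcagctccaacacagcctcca
OTX2 second promoter: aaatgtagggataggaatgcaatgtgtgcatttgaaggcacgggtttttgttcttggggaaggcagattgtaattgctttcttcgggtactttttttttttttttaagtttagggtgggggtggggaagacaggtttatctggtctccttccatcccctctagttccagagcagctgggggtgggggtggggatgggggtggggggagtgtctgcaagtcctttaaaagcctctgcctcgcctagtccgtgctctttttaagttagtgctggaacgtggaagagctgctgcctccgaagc
OTX2-AS1 promoter: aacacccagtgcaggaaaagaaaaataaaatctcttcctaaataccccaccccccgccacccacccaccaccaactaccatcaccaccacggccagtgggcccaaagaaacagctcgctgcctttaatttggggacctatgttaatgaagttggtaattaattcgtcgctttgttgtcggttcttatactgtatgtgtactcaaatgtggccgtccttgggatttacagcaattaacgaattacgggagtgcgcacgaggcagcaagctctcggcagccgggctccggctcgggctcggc
SLC35F4 promoter: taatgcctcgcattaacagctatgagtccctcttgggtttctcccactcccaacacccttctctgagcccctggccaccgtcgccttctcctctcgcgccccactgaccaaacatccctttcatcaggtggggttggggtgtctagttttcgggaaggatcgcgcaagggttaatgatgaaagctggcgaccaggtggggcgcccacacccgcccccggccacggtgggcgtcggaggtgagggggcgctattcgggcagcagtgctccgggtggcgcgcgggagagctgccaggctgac

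From the segments that were covered by an enhancer in all 3 G3-MB lines, 3 stretches of 300 bases are shown on the plus strand, each the stretch of its segment with the most TAATCC and then the most TAATC. The *OTX2* stretch, at chr14:56808113-56808412, lay in an intron of *OTX2*. The *OTX2-AS1* stretch, at chr14:56891497-56891796, lay in an intron of *OTX2-AS1*. The *SLC35F4* stretch, at chr14:57983351-57983650, lay just upstream of the longest *SLC35F4* gene model and inside the top-ranked enhancer of MB002.
OTX2 stretch: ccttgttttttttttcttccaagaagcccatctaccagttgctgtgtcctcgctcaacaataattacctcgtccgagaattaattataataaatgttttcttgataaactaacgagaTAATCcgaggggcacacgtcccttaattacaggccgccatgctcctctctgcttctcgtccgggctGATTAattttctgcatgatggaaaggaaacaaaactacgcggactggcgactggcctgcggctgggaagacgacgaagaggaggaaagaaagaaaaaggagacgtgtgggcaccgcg
OTX2-AS1 stretch: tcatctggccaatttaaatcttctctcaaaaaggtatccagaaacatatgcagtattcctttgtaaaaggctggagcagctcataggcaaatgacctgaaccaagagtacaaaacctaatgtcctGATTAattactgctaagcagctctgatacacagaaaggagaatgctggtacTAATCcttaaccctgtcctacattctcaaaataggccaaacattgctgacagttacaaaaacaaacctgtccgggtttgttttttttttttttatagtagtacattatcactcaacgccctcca
SLC35F4 stretch: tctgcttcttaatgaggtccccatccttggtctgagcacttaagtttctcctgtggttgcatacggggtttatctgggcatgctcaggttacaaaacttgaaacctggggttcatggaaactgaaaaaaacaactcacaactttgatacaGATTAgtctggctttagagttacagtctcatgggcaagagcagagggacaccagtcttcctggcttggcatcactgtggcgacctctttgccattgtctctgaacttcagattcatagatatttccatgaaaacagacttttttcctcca

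TAATC was absent from all 8 promoters of these genes in the table, *EXOC5* and *CCDC198* included, and so was TAATCC. Over both strands, 19.8% of the 35116 promoters of the same length held TAATC and 6.36% held TAATCC. Both *SLC35F4* promoters of the table overlap each other, so the 8 are not separate sequences, and nothing is read from their lack of matches. The *OTX2* promoter had a GC content of 49.7% and the *SLC35F4* promoter one of 63.7%, against a median of 58.7% over all promoters. The *OTX2* and *OTX2-AS1* stretches each held 2 TAATC, of which 1 was a TAATCC, and the *SLC35F4* stretch held 1 TAATC. For comparison, 47.5% of the 300-base centres of the other chromosome 14 enhancers of MB002 held TAATC, as did 50.9% in D425 and 38.2% in HD-MB03, although these were not chosen for it. These matches describe letters and were not set against binding of any factor.

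For every stitched enhancer, H3K27Ac and input signal were deposited as reads per bp, scaled to mapped reads and summed over its length. Sequencing depth is unknown. The remainder of H3K27Ac after input was taken away was floored at 0. Ordered by this remainder, all enhancers had their deposited ranks in the 4 lines, with rank 1 the highest. In the H3K27Ac to input ratio of an enhancer its length cancels out. The relative input density compares the input per bp of an enhancer with the middle value of its line, the median of all its enhancers, so that a value of 1 is the usual input of the line.

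The locus carried many more SEs in MB002 than in the other lines. MB002 had 49 enhancers in the window, D425 21, HD-MB03 35 and UW228 16. Of these, 14 were called as SEs in MB002, where 1.39% of all enhancers were, and 2 in D425, against 1.64% of all enhancers. HD-MB03 had 4 SEs against 1.98% of its enhancers, and UW228 had none against 3.61%. Enhancers covered 607 kb of the window in MB002, 103 kb in D425, 311 kb in HD-MB03 and 63.4 kb in UW228. They held 4.93% of the signal minus input of all enhancers in MB002, 0.503% (D425), 1.09% (HD-MB03) and 0.0320% (UW228) in the others. Their mean H3K27Ac signal per bp was 11.7 (MB002), 5.44 (D425), 2.33 (HD-MB03) and 0.651 (UW228). The enhancers were called separately in each line, so the sums move with the length that was called. Of all enhancers of a line, 0.188% (MB002), 0.0798% (D425), 0.229% (HD-MB03) and 0.0766% (UW228) lay in the window, so UW228 was close to D425 in this share. MB002 had the largest share of its signal at this locus.

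Input over the window differed between the lines as well. In the window, relative input density had a median of 32.3 (MB002), 1.37 (D425), 4.81 (HD-MB03) and 0.718 (UW228). Over the other enhancers of chromosome 14 it was 0.952 (MB002), 0.862 (D425), 0.985 (HD-MB03) and 0.844 (UW228). The window held 9.44% of the input signal of all MB002 enhancers, 0.673% of that of D425, 1.46% of that of HD-MB03 and 0.0325% of that of UW228. In all 4 lines the share of input was larger than the share of signal minus input, in UW228 by the least. In MB002 the median H3K27Ac to input ratio in the window was 2.29, against 5.10 over the whole line. In HD-MB03 the window had a median ratio of 2.97, against 5.65 over the line. The enhancers of D425 and UW228 had median ratios of 5.40 and 6.12 in the window, against 4.96 and 5.41 over the line, respectively. No measure of DNA copy number was analysed here.

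A high-input block was defined in each line as the span from the first to the last enhancer of the window whose relative input density reached 5, where at least 3 enhancers reached it. In MB002 it ran from 56585387 to 58217050, 1632 kb, and held 39 enhancers. All 39 were over the threshold, at 9.30 to 50.4 with a median of 34.9, and only 48 of the 26072 enhancers of the line, 0.184%, were. The far edge was steep. The edge on the *TMEM260* side adjoined the longest stretch of the MB002 window without an enhancer, so its steepness is unknown. The nearest enhancer before the block, 132 kb away, had a relative input density of 1.71, and the nearest one after it, 23.1 kb away, had 0.695. The block of MB002 reached from within *TMEM260* to within *ACTR10* and contained the start sites of all 6 genes.

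D425 had the shortest block with the highest input. It ran from 56754756 to 56902954, 148 kb, and held 4 enhancers at 47.3 to 64.5, of 18 enhancers of the line over the threshold (0.0684%). The nearest enhancers outside it had 2.02 before it, 23.3 kb away, and 1.39 after it, 41.7 kb away. The block contained *OTX2* and the start of *OTX2-AS1* but none of the other 4 genes. In HD-MB03 the block was the longest and the shallowest, from 56188902 to 58240694, 2052 kb. It held 30 enhancers at 2.72 to 8.24 with a median of 4.93, of which 14 were over the threshold and 16 under it, and over the whole line 0.373% of enhancers were over it. Its edges were gradual. The nearest enhancers outside it had 4.77 and 3.93, the 10 enhancers before the window had a median of 3.36, and the 10 after the window had 0.839. With a threshold of 3 the HD-MB03 block took in all 35 enhancers of the window, and with one of 10 there was no block, so its length depends on the threshold. In UW228 no enhancer of the window was over 1.21, and 0.00479% of all its enhancers were over the threshold of 5.

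**Figure D1:**
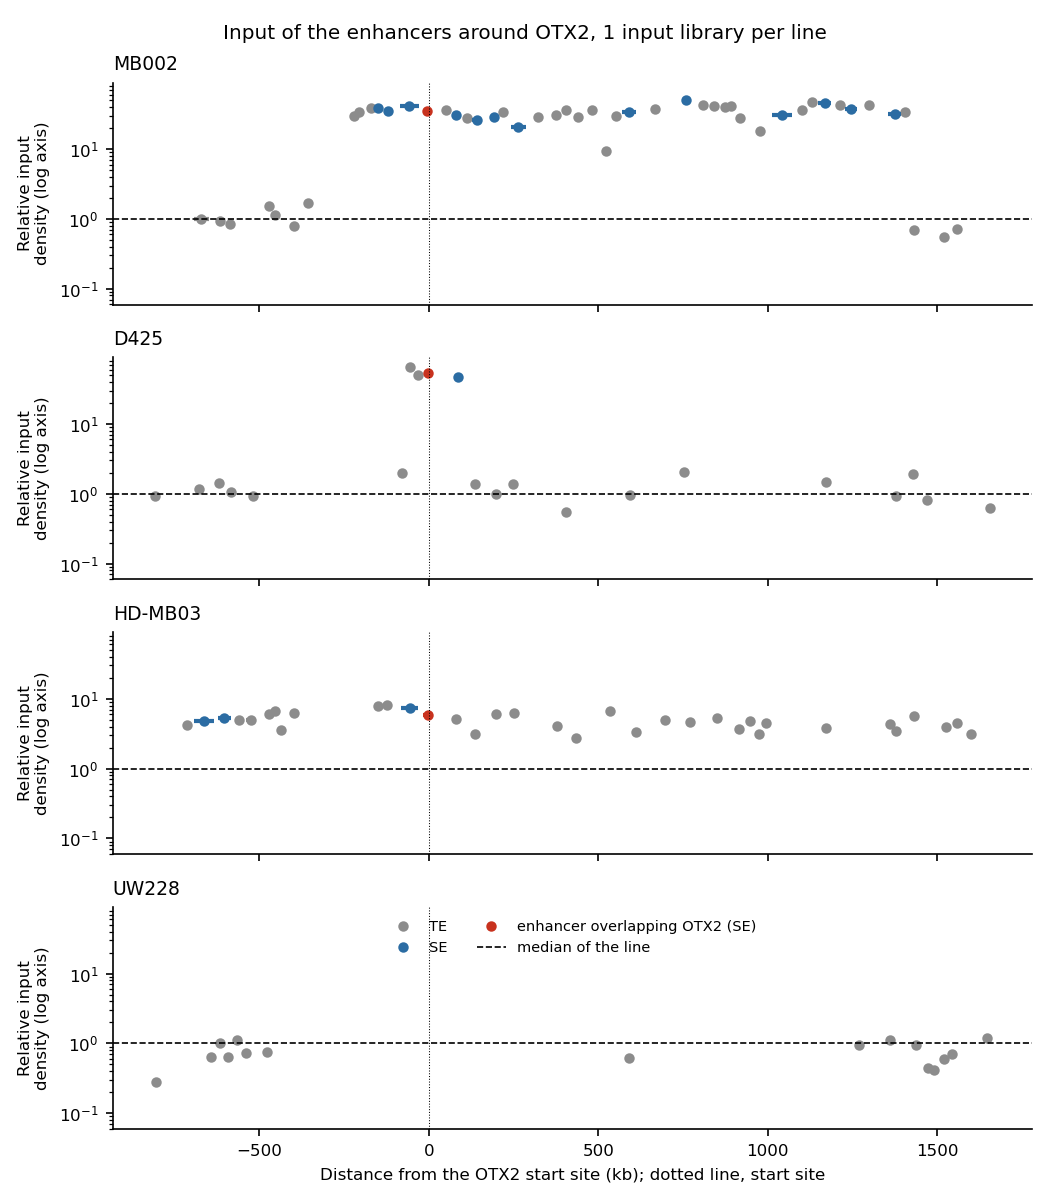
Relative input density (log axis, 1 is the median of the line) of each enhancer against the distance of its centre from the *OTX2* start site in kb, with a panel for each line and horizontal bars for the lengths of the enhancers. Red is the enhancer that overlapped *OTX2*, blue other SEs and grey typical enhancers (TEs). The blocks set by the threshold of 5 span 1632 kb in MB002, 148 kb in D425 and 2052 kb in HD-MB03, where raised input also lies outside the block, and UW228 has none.

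The edges of the window itself fell outside the blocks of all 3 G3-MB lines. The last enhancer before the window and the first one inside it had relative input densities of 1.82 and 0.984 (MB002), 1.23 and 0.925 (D425), 4.04 and 4.23 (HD-MB03) and 1.46 and 0.282 (UW228). The last enhancer inside the window and the first one after it had 0.720 and 1.42 (MB002), 0.634 and 0.154 (D425), 3.10 and 2.26 (HD-MB03) and 1.21 and 1.19 (UW228). HD-MB03 was the line in which raised input reached past the window on the side before *OTX2*.

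*OTX2*, from 56799905 to 56810479 on the minus strand, was overlapped by a SE among the 5 highest of each G3-MB line. In MB002 this SE ran from 56794260 to 56817467, 23207 bp with 5 peaks, and was rank 3 of the line. Its H3K27Ac signal was 763243 and its input 110289, which left 652954 and gave a ratio of 6.92. In D425 the SE was a single peak of 4719 bp from 56806457 to 56811176, also at rank 3. Its H3K27Ac signal was 287054 and its input 33405, which left 253649 and gave a ratio of 8.59. In HD-MB03 the SE ran from 56793824 to 56822537, 28713 bp with 5 peaks, at rank 5. Its H3K27Ac signal was 195860 and its input 19734, which left 176126 and gave a ratio of 9.92. The order of the lines by total signal minus input was the reverse of their order by ratio, and with 1 library per line no spread separates neighbours in either order.

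Per bp, H3K27Ac over *OTX2* was 32.9 (MB002), 60.8 (D425) and 6.82 (HD-MB03), and input was 4.75, 7.08 and 0.687, respectively. Input over *OTX2* was 35.2 times the line median in MB002, 53.3 times in D425 and 5.84 times in HD-MB03. The ratio over *OTX2* was 1.36 times the median ratio of all enhancers in MB002, 1.73 times in D425 and 1.76 times in HD-MB03. It lay at the 69.6th percentile of the line in MB002, the 81.7th in D425 and the 77.8th in HD-MB03. Ordered by ratio alone, the *OTX2* enhancer was at place 7869 (MB002), 4777 (D425) and 3368 (HD-MB03). By signal minus input per bp it was at place 4 (MB002), 2 (D425) and 27 (HD-MB03). Its place thus depended on the measure.

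**Figure D2:**
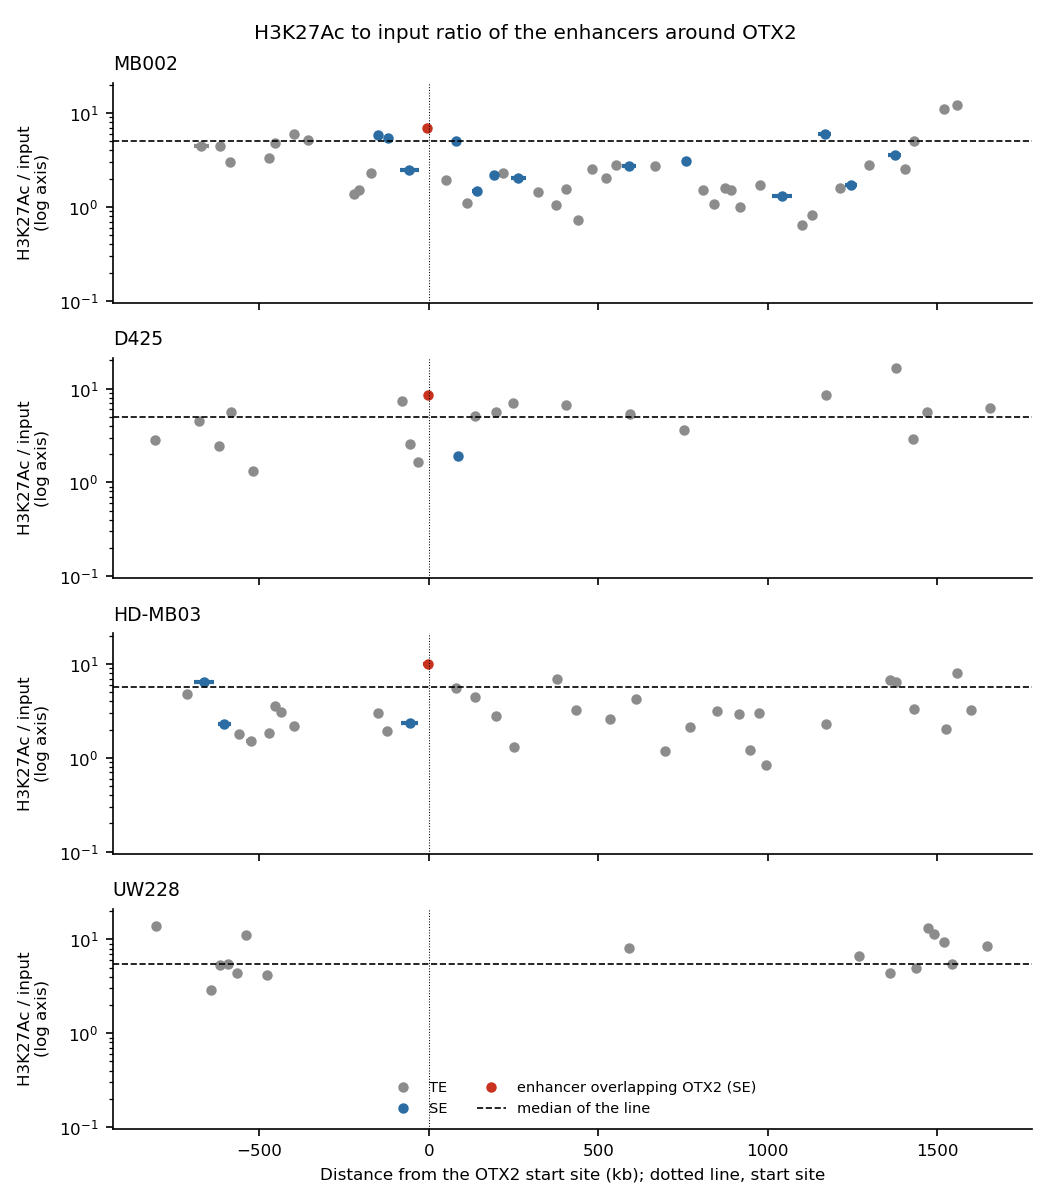
H3K27Ac to input ratio (log axis) of each enhancer against the distance of its centre from the *OTX2* start site in kb, with a panel for each line; the dashed line is the median over all enhancers of that line. The *OTX2* enhancer (red), at 6.92 (MB002), 8.59 (D425) and 9.92 (HD-MB03), stood above the other enhancers of its block, most of which lay below the median.

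Set against its neighbours inside the same block, the *OTX2* enhancer had the highest ratio in all 3 G3-MB lines. Its input was close to theirs. Its relative input density was 1.01 times the median of the neighbours in MB002, 1.06 times in D425 and 1.19 times in HD-MB03, and by input it took place 19 of 39, 2 of 4 and 10 of 30. Its ratio was 3.76 times the median of 38 neighbours in MB002, 4.48 times that of 3 neighbours in D425 and 3.58 times that of 29 neighbours in HD-MB03. In MB002 it was 1.91 times the median of the neighbours over a start site, at *NAA30* (ratio 2.74), *ACTR10* (3.62) and *SLC35F4* (5.97). In HD-MB03 the *SLC35F4* enhancer was the only such neighbour, and the ratio over *OTX2* was 4.30 times its ratio. Against the strongest neighbours of MB002, the upper quartile by signal minus input, the ratio over *OTX2* was 2.24 times their median. This choice was added after the data were seen. Over the next highest neighbour it was 1.16 times in MB002, 3.37 times in D425 and 1.43 times in HD-MB03. The enhancers of a block come from the same library and are no replicates of each other.

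Length and peak coverage also varied inside the blocks. The *OTX2* enhancer made up 4.39% of the enhancer length of the block and 14.1% of its signal minus input in MB002, 21.4% and 70.1% in D425, and 12.1% and 52.7% in HD-MB03. With the block of HD-MB03 set at a threshold of 3, a choice made after the data were seen, which took in the *PELI2* SE, the share of signal minus input was 33.4%. Peaks covered 73.2% of the *OTX2* enhancer in MB002, all of it in D425 and 84.7% of it in HD-MB03. Over the enhancers of the block, the Spearman correlation of the ratio with the share of length in peaks was 0.59 in MB002 (n = 39) and 0.76 in HD-MB03 (n = 30). With length itself the ratio had a correlation of 0.08 in MB002 and -0.45 in HD-MB03, where longer enhancers had lower ratios. These correlations describe enhancers of a single library each. With only the neighbours that peaks covered over at least 50% of their length, a choice made after the data were seen, the ratio over *OTX2* was 2.75 times their median in MB002, 4.11 times in D425 and 3.07 times in HD-MB03.

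**Figure D3:**
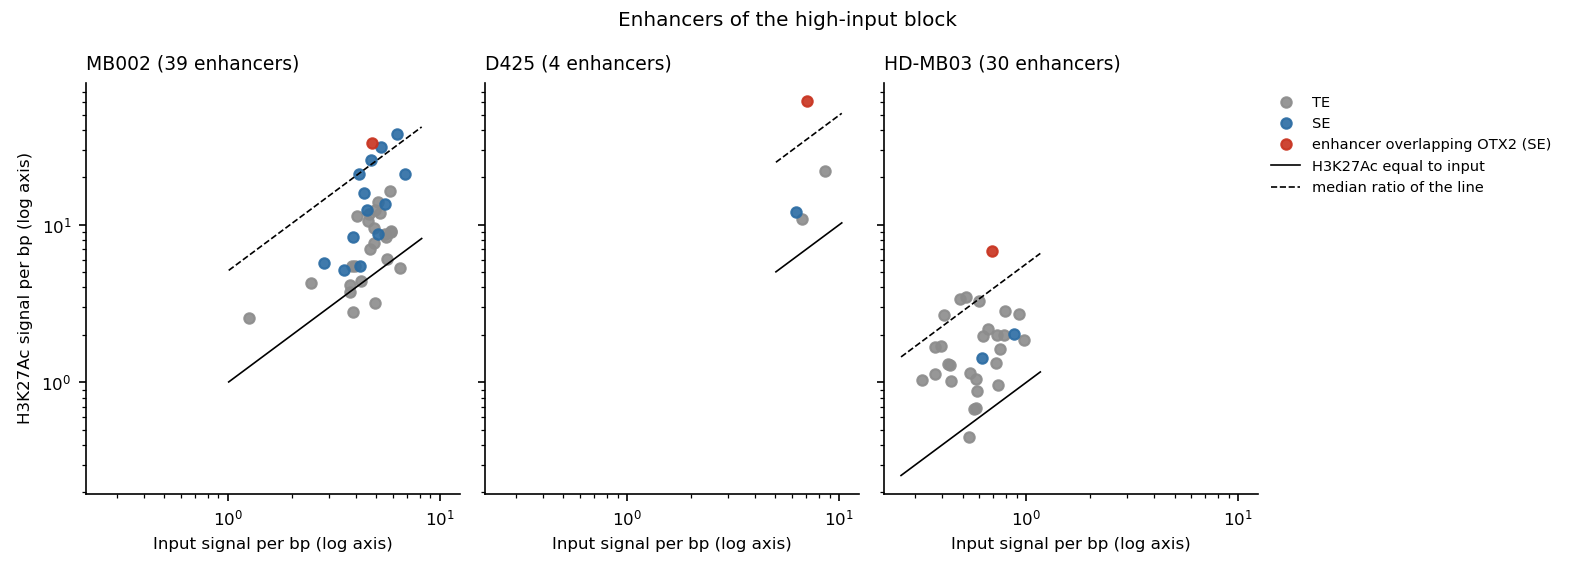
H3K27Ac signal per bp against input signal per bp (both log axes) of the enhancers of the high-input block of MB002 (39), D425 (4) and HD-MB03 (30). The solid line marks H3K27Ac equal to input and the dashed line the median ratio of the line. The *OTX2* enhancer (red) lies above the dashed line at an input near the middle of its neighbours, and most neighbours lie between the lines.

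In MB002, 35 of the 38 neighbours had a ratio below the 5.10 of the line, and 4 had more input than H3K27Ac. Their ratios ran from 0.648 to 5.97 with a median of 1.84. By H3K27Ac signal per bp the *OTX2* SE was at place 2 of the block, behind the SE at the 5′ end of *SLC35F4* with 37.4. Of the 13 other SEs of the block, 10 were below the median ratio of the line. This share was not computed over all 363 SEs of MB002, so nothing is read from it. The 3 others of the block were at ranks 1, 9 and 41. That at rank 41, from 56658983 to 56662332 inside *TMEM260*, was a single peak of 3349 bp with an H3K27Ac signal of 104158, an input of 17656 and a ratio of 5.90. That at rank 9, from 56681643 to 56699561, had 463388 of H3K27Ac and 84603 of input over 17918 bp, a ratio of 5.48. Both lay on the 3′ side of *OTX2*, towards and inside *TMEM260*.

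The 10 SEs of MB002 below the median ratio were 11064 to 56133 bp long. At rank 7, the SE from 56726545 to 56780048 stitched 17 peaks over 53503 bp, and its 728941 of H3K27Ac over 295085 of input gave a ratio of 2.47. Over *ACTR10*, the SE at rank 8 had a ratio of 3.62, that at rank 11 over the 3′ end of *SLC35F4* one of 3.09, and that at rank 13 over *NAA30* one of 2.74. The SE at rank 15, inside *OTX2-AS1*, had a ratio of 5.06 and was just below the median of the line. At rank 19, the SE from 57052429 to 57097188 held 256787 of H3K27Ac and 126543 of input over 44759 bp, a ratio of 2.03. The SE at rank 21 inside *ARMH4* had a ratio of 1.71, that at rank 59 one of 2.17, that at rank 74 one of 1.30 and that at rank 196 one of 1.48. Their input was 20.9 to 50.4 times the line median, and that of the 3 SEs above the median ratio was 34.9 to 46.4 times. What set their ranks was not tested.

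The 25 TEs of the MB002 block had ratios between 0.648 and 2.81, all below the median of the line. The 4 enhancers with more input than H3K27Ac had ratios of 0.648, 0.723, 0.826 and 0.993, and 3 of them lay in *SLC35F4* and 1 in *EXOC5*. Their signal minus input was 0, which put them at ranks 26023 to 26067 of 26072. In HD-MB03 1 enhancer of the window had more input than H3K27Ac, and in D425 and UW228 none had. Over all enhancers, this share was 0.193% (MB002), 0.165% (D425), 0.0659% (HD-MB03) and 0.0241% (UW228). The 10 enhancers of the MB002 window outside the block had relative input densities of 0.557 to 1.71 and ratios of 3.05 to 12.2, and none was a SE.

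In D425, all 3 neighbours had a ratio below the 4.96 of the line. The SE at rank 23, from 56887028 to 56902954 inside *OTX2-AS1*, had an H3K27Ac signal of 192104 and an input of 100081 over 15926 bp, a ratio of 1.92. The TE at rank 1046, from 56754756 to 56755900, had 24956 and 9799 over 1144 bp, a ratio of 2.55, with the highest relative input density of the window at 64.5. The TE at rank 11239, from 56778432 to 56778675, had 2644 and 1620 over 243 bp, a ratio of 1.63. *OTX2* was thus the only enhancer of this block above the median ratio of D425. The 17 D425 enhancers outside the block had ratios of 1.32 to 16.6 at relative input densities of 0.550 to 2.07, and the *OTX2* enhancer took place 2 of 21 in the window by ratio. Against all 20 other enhancers of the window, its ratio was 1.64 times their median.

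In HD-MB03, 26 of the 29 neighbours had a ratio below the 5.65 of the line, from 0.837 to 6.95 with a median of 2.77. The 3 neighbours above it were TEs of 619 to 1500 bp, with ratios of 6.95 at rank 4999, 6.73 at rank 5045 and 6.50 at rank 3337. The block had 2 further SEs. The SE at rank 36, from 56728747 to 56778890, had an H3K27Ac signal of 101931 and an input of 43715 over 50143 bp, a ratio of 2.33. It overlapped the SE at rank 7 of MB002. The SE at rank 178, from 56188902 to 56225819 inside *PELI2*, had 52526 and 22726 over 36917 bp, a ratio of 2.31. By H3K27Ac signal per bp, *OTX2* was above all 29 neighbours, at 6.82 against at most 3.49.

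UW228 had no enhancer over *OTX2*. Its 16 enhancers lay in a group of 7 around *PELI2*, 1 at *NAA30*, and a group of 8 from *ARMH4* onwards, with lengths of 261 to 18240 bp. Between the first group and *NAA30*, 1058 kb from 56343035 to 57401294 had no enhancer, and the *OTX2* start site lay in this gap, 467 kb from the nearest enhancer. The longest gaps of the other lines were 132 kb in MB002, 433 kb in D425 and 246 kb in HD-MB03, and none contained *OTX2*. The ratios of the UW228 enhancers ran from 2.88 to 13.9, and the highest rank was 3925. The signal of UW228 outside called enhancers, over *OTX2* included, was not analysed here.

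Of the 6 genes, the 4 besides *OTX2* and *OTX2-AS1* were assigned SEs in MB002 and not in the other lines. A gene was assigned to an enhancer when its body overlapped it, when its start site lay within 50 kb, or when its start site was the closest to the centre. All 6 genes were assigned a SE in MB002, where 4.69% of the genes with an enhancer had one, and for 4 of the 6 a SE overlapped the gene body or the start site. In D425 2 of 6 had one, against 5.88%, and in HD-MB03 2 of 6, against 5.41%. These were *OTX2* and *OTX2-AS1* in both lines. In UW228 none of the 6 had a SE, against 9.03%, and only *ACTR10* had any enhancer. The genes were chosen with these calls known, and nothing is read from the shares. With the closest start site alone, 6, 2, 1 and 0 of the 6 genes had a SE in MB002, D425, HD-MB03 and UW228.

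*OTX2-AS1* is a long non-coding RNA gene that starts on the opposite strand next to *OTX2*. Its start site at 56812006 lay inside the *OTX2* SE in MB002 and HD-MB03 and 0.830 kb outside it in D425, the D425 SE being confined to the *OTX2* side. Its body held further enhancers. In MB002 a SE at rank 15, from 56884604 to 56895668, had an H3K27Ac signal of 231383 and an input of 45767, a ratio of 5.06. In D425 the overlapping SE at rank 23 had a ratio of 1.92, and in HD-MB03 the overlapping TE at rank 2660 had 5566 and 1011 over 1694 bp, a ratio of 5.51. The stretch shown from this segment lay under a SE in MB002 and D425 but under a TE in HD-MB03. In UW228 no enhancer was assigned to *OTX2-AS1*.

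*EXOC5* encodes a subunit of the exocyst, the complex that tethers secretory vesicles to the plasma membrane. Its start site at 57268905 lay in no enhancer of any line, and the nearest enhancer was 14.5 kb away in MB002, 53.5 kb in D425, 23.8 kb in HD-MB03 and 132 kb in UW228. The authors' definition of enhancers left out the surroundings of promoters, but the single peak of the D425 *OTX2* enhancer covered the *OTX2* start site. Of all start sites, 7.48% (MB002), 6.88% (D425), 5.71% (HD-MB03) and 5.93% (UW228) lay in an enhancer, so nothing is read from a start site outside one. H3K27Ac at the promoters themselves was not analysed here. The nearest enhancer of MB002 had a ratio of 0.723 at a relative input density of 28.7, less H3K27Ac than input. Its best assigned enhancer was the SE at rank 19 in MB002, which lay 172 kb from the start site and was assigned because no other start site was closer to its centre, a TE at rank 6944 in D425 and another at rank 3875 in HD-MB03. These 3 overlapped each other, and their ratios were 2.03 (MB002), 6.97 (D425) and 1.31 (HD-MB03). Only the MB002 one was a SE, and its relative input density was 20.9, against 1.37 in D425 and 6.27 in HD-MB03.

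The start site of *CCDC198*, at 57493857, also lay outside the enhancers of all lines, as most start sites did. The nearest one was 14.5 kb away in MB002, 69.4 kb in D425, 8.61 kb in HD-MB03 and 90.4 kb in UW228. In MB002 the gene body held a TE of 563 bp with a ratio of 2.72, and the best assigned enhancer was the SE at rank 11 over the 3′ end of the neighbouring *SLC35F4*, 63.0 kb from the *CCDC198* start site. This SE, from 57556871 to 57581872, had an H3K27Ac signal of 526651 and an input of 170404, a ratio of 3.09, and the highest relative input density of the MB002 window at 50.4. In HD-MB03 the nearest enhancer was a TE of 7147 bp with a ratio of 1.19. In D425 a TE of 2186 bp inside the MB002 SE had a ratio of 3.58 at a relative input density of 2.07.

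*SLC35F4*, which encodes a member of the solute carrier family 35, was the longest of the neighbours and had the top-ranked enhancer of MB002. This SE, from 57958770 to 57997836, lay over the 5′ end of the longest gene model at 57983181. Its H3K27Ac signal was 1461518 and its input 244959, which left 1216558, and its ratio was 5.97. *OTX2*, at rank 3, had the higher ratio of both, 6.92, at 35.2 times the median input against 46.4 times. In D425 the same 5′ end had a TE at rank 3796, from 57980995 to 57984473, with an H3K27Ac signal of 5802 and an input of 682. Its ratio of 8.51 was close to the 8.59 over *OTX2* in the same line, at a relative input density of 1.48 against 53.3. In HD-MB03 it had a TE at rank 8173 with 1287 and 558 over 1259 bp, a ratio of 2.31. In UW228 the nearest enhancer was 94.7 kb away. The 5′ end thus lay under an enhancer in all 3 G3-MB lines. The ratio of that enhancer was above the line median in MB002 and D425 and below it in HD-MB03.

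The *SLC35F4* promoter shown lay elsewhere, at the start of the shorter gene models, inside the MB002 SE at rank 74 from 57824283 to 57880416. That SE stitched 13 peaks over 56133 bp, with an H3K27Ac signal of 305925 over an input of 235708, and its ratio of 1.30 was the lowest of the 14 SEs of MB002 in the window. No enhancer of D425, HD-MB03 or UW228 covered this promoter. Over the whole gene, MB002 had 11 enhancers of which 3 were SEs, HD-MB03 had 7 TEs, D425 had 2 TEs and UW228 had none. The best one of HD-MB03 was a TE of 19912 bp at rank 584 with a ratio of 2.97.

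*ACTR10* encodes an actin-related subunit of dynactin, the cofactor of the motor protein dynein. Its start site at 58200149 lay inside the MB002 SE at rank 8, from 58166172 to 58203273, which had an H3K27Ac signal of 586782 and an input of 162016, a ratio of 3.62. It was close to the far edge of the MB002 block. In D425 a TE of 361 bp at rank 13330, 10.1 kb from the start site, had the highest ratio of the D425 window, 16.6, at a relative input density of 0.928. In HD-MB03 a TE of 1500 bp at rank 3337, 9.69 kb away, had a ratio of 6.50. Both TEs overlapped the MB002 SE, a stitch of 7 peaks that covered 51.7% of its 37101 bp. Whether a peak of MB002 lay at these TEs was not analysed here. The SE rank is that of the whole stitch. In UW228 the best assigned enhancer was at rank 15527 with a ratio of 4.94. The nearest one of UW228, at rank 17514 from 58171460 to 58171954, lay inside the MB002 SE but outside these TEs of D425 and HD-MB03.

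**Figure D4:**
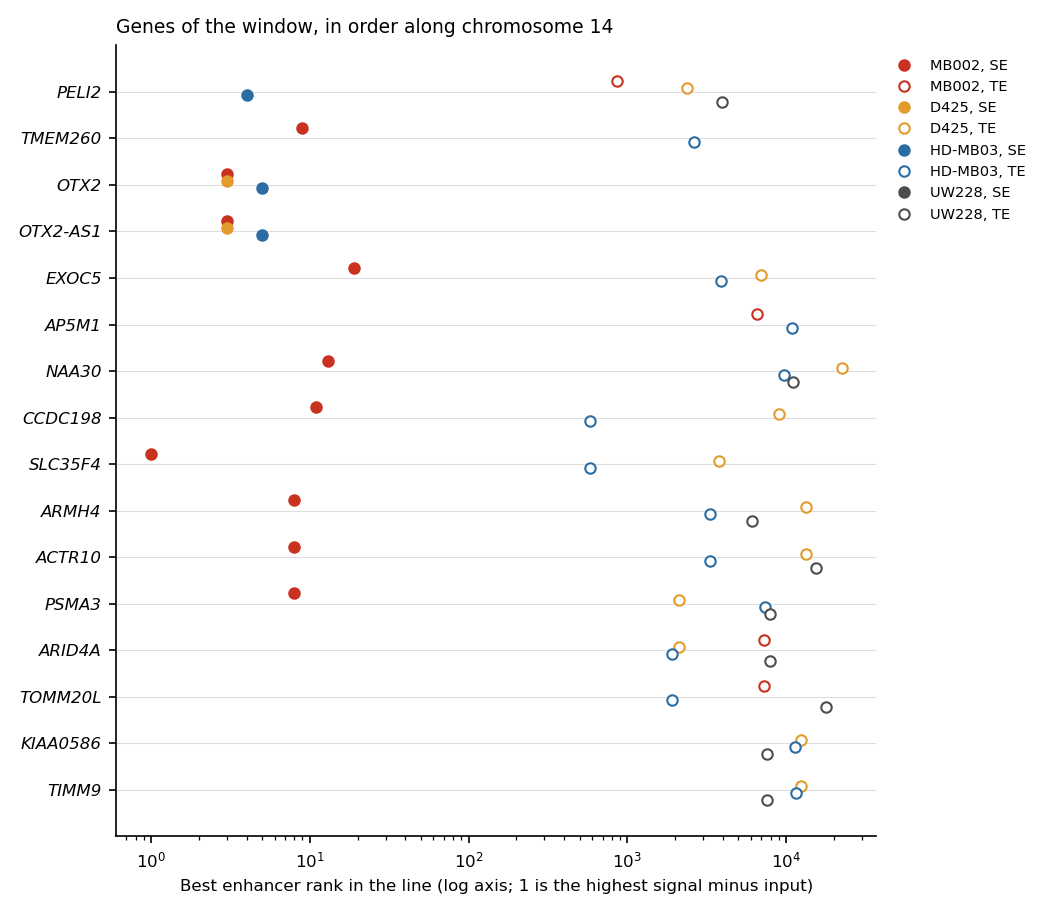
Best enhancer rank (log axis, 1 is the highest signal minus input) of *OTX2-AS1* and the 15 protein-coding genes of the window, in order along the chromosome, with a colour for each line, filled for SEs and open for TEs; a missing circle is a gene with no assigned enhancer. *OTX2* and *OTX2-AS1* had a SE in all 3 G3-MB lines, and 9 of the 15 protein-coding genes had one in MB002.

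Of all 15 protein-coding genes of the window, 9 had a SE in MB002, 1 had one in D425, 2 had one in HD-MB03 and none had one in UW228. The share over all genes with an enhancer was 4.69% (MB002), 5.88% (D425), 5.41% (HD-MB03) and 9.03% (UW228), so D425 was near its share. The MB002 genes besides the named ones were *TMEM260*, which encodes an O-mannosyltransferase, *NAA30*, the catalytic subunit of an N-terminal acetyltransferase, *ARMH4*, and *PSMA3*, an alpha subunit of the proteasome. *PSMA3* had a SE only through the SE over *ACTR10*, and its own nearest enhancer, 2.54 kb from its start site, was outside the block with a ratio of 5.06 at a relative input density of 0.695. *NAA30* had its start site inside the MB002 SE at rank 13, from 57379448 to 57422948, whose ratio was 2.74. *AP5M1*, which encodes a subunit of the AP-5 adaptor complex, was inside the block of MB002 and had TEs only, at best at rank 6588 with a ratio of 2.52.

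*PELI2*, a Pellino E3 ubiquitin ligase gene, lay before the block of MB002 and was the only other protein-coding gene with a SE in HD-MB03. There the SE at rank 4, from 56117408 to 56175372, covered its start site with an H3K27Ac signal of 211424 and an input of 32535, a ratio of 6.50. It ranked above *OTX2* with a lower ratio and a similar relative input density, 4.77 against 5.84, over a length of 57964 bp against 28713 bp. In MB002 the enhancer over the *PELI2* start site was a TE at rank 859 with a ratio of 4.43 at a usual input of 0.984. In D425 the nearest was a TE at rank 2385 with a ratio of 4.51, and in UW228 the best was a TE at rank 3925 with 5.28. *ARID4A*, an RB-binding protein gene, *TOMM20L*, *KIAA0586*, a gene for a protein of cilia, and *TIMM9*, a mitochondrial chaperone gene, lay after the blocks of MB002 and D425 and had no SE in any line.

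Across lines, 13 segments of 40.9 kb in all were covered by enhancers in the 3 G3-MB lines. The one over *OTX2* was 4720 bp long, from 56806457 to 56811176, and was the whole of the D425 SE. It held the first promoter, the intronic stretch shown and no enhancer of UW228. Of the 13 segments 1, from 56188902 to 56199356 in *PELI2*, was also overlapped by an enhancer of UW228, and over all chromosomes this held for 30.9% of 6781 such segments. Of the window enhancers, 25 of 49 in MB002, 19 of 21 in D425, 25 of 35 in HD-MB03 and 10 of 16 in UW228 overlapped one of another line. Over all enhancers of a line the share was 59.7% (MB002), 59.7% (D425), 74.6% (HD-MB03) and 42.5% (UW228). Enhancers of UW228 were overlapped by 6 of 49 in MB002, 4 of 21 in D425 and 5 of 35 in HD-MB03, against 20.3% (MB002), 24.4% (D425) and 26.2% (HD-MB03) of all enhancers. The enhancers over the *OTX2* segment had ratios above the line median in all 3 lines, which held for no other of the 13 segments. The *SLC35F4* segment fell below it in HD-MB03 alone, at 2.31. These ratios are of whole stitched enhancers, and several segments lie under the same one, so the 13 are not separate cases. The share over all 6781 segments was not computed, so nothing is read from this count.

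The base composition of the *OTX2* enhancer was within the range of its neighbours in MB002 and HD-MB03 and above it in D425. Its GC content was 48.5% (MB002), 49.5% (D425) and 46.9% (HD-MB03), against neighbour medians of 40.8%, 40.2% and 41.3%, respectively. A higher GC content was found in 5 of 38 neighbours in MB002, 0 of 3 in D425 and 8 of 29 in HD-MB03. Per kb, it held 0.388 (MB002), 0.212 (D425) and 0.488 (HD-MB03) TAATCC, over both strands. The neighbours held 0.791 (MB002), 0.635 (D425) and 0.615 (HD-MB03) per kb, and the chromosome 14 enhancers outside the window 0.912, 0.956 and 0.816 per kb. These are densities over all neighbours pooled, and the D425 value of *OTX2* rests on 1 match. Taken singly, 9 of 38 neighbours in MB002, 1 of 3 in D425 and 18 of 29 in HD-MB03 had a lower density than *OTX2*, so the order was not the same in the 3 lines.

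A list of 14 regulators that work in the same tissues as OTX2 had no SE ranked as high as that of *OTX2* in the same line. In MB002 3 of 14 had a SE, against 4.69% of genes, in D425 2 of 14, against 5.88%, in HD-MB03 1 of 14, against 5.41%, and in UW228 none, against 9.03%. *CRX*, the closest relative of *OTX2* in photoreceptors, had SEs at rank 84 in MB002 and 89 in D425 with ratios of 8.13 and 5.66, and a TE at rank 1425 in HD-MB03. *NEUROD1*, a neurogenic bHLH factor, had SEs at rank 253 in MB002 and 48 in HD-MB03 with ratios of 4.16 and 35.6, and a TE at rank 502 in D425. *SIX3*, an eye-field homeobox gene, had SEs at rank 172 in MB002 and 350 in D425 with ratios of 8.25 and 8.18, and a TE at rank 6597 in HD-MB03. All of these had a relative input density between 0.888 and 1.78, below that of *OTX2* in the same line. *NRL*, the rod photoreceptor bZIP factor, had TEs at rank 2973 (MB002), 747 (D425) and 696 (HD-MB03), and no enhancer in UW228. The median best rank of those with an enhancer (13, 12, 10 and 8 genes) was 4641 (MB002), 6771 (D425), 6106 (HD-MB03) and 14449.5 (UW228), against 6714.5, 6328, 4206 and 6449 over all genes with an enhancer.

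**Figure D5:**
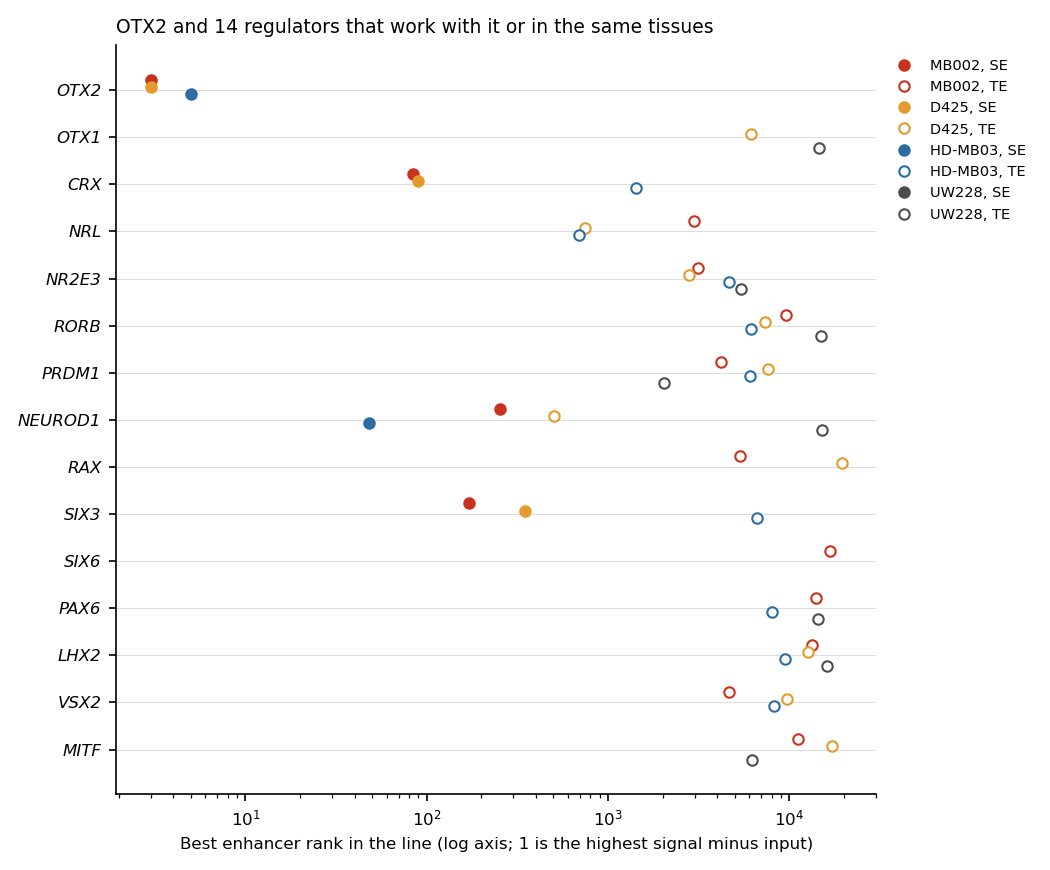
Best enhancer rank (log axis, 1 is the highest signal minus input) of *OTX2* and the 14 regulators in each line, filled for SEs and open for TEs; a missing circle is a gene with no assigned enhancer. *OTX2* was at ranks 3, 3 and 5 in the G3-MB lines, and the best-ranked regulator was *NEUROD1* at 48 in HD-MB03.

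The subgroup labels were compared with marker genes. Of 6 Group 3 markers, 1 had a SE in MB002 (*MAB21L2*), none in D425, 1 in HD-MB03 (*IMPG2*) and none in UW228, and the median best rank of those with an enhancer (5, 4, 4 and 4 genes) was 2973, 1391, 587.5 and 6899, respectively. With genes that lack an enhancer placed past the last rank, a choice made after the data were seen, it was 3019 (MB002), 1839 (D425), 5806 (HD-MB03) and 12923.5 (UW228). *NPR3* went the other way, with no enhancer in any G3-MB line and rank 1082 in UW228. Of 5 SHH markers, only *PDLIM3* in HD-MB03 had a SE, at rank 170, and in UW228 none had one and *ATOH1* had no enhancer. The median best rank of the SHH markers with an enhancer (4, 2, 3 and 4 genes) was 7751.5 (MB002), 10180 (D425), 5357 (HD-MB03) and 2978 (UW228). With the others placed past the last rank it was 10894 (MB002), 26318 (D425), 10961 (HD-MB03) and 3545 (UW228). Of 4 mesenchymal markers, *COL1A2* had a SE in UW228, at rank 75, and none had one in the G3-MB lines. Over all genes with an enhancer, the share with a SE was 4.69% (MB002), 5.88% (D425), 5.41% (HD-MB03) and 9.03% (UW228), and the median best rank of UW228 was 6449. Among those with an enhancer (3, 4, 3 and 4 genes), the median best rank of the mesenchymal markers was 1213 (MB002), 4519 (D425), 1944 (HD-MB03) and 3685.5 (UW228), and with the missing gene past the last rank it was 1615.5 in MB002 and 3015 in HD-MB03. The lines differ in their number of enhancers, 26072 (MB002), 26317 (D425), 15286 (HD-MB03) and 20875 (UW228), so ranks of different lines are not on the same scale. In UW228 the SHH markers had the better median of both lists. As a share of the enhancers of the line, the median best rank of the Group 3 markers with an enhancer was 11.4% (MB002), 5.29% (D425), 3.84% (HD-MB03) and 33.0% (UW228), and that of the SHH markers 29.7% (MB002), 38.7% (D425), 35.0% (HD-MB03) and 14.3% (UW228). With missing genes past the last rank, the shares of the Group 3 markers were 11.6% (MB002), 6.99% (D425), 38.0% (HD-MB03) and 61.9% (UW228). On this scale the Group 3 markers were better placed in each G3-MB line than in UW228 and the SHH markers better placed in UW228, while single markers such as *NPR3* and *PDLIM3* went against this. For the mesenchymal markers the order of HD-MB03 and UW228 turned with the choice, from 12.7% in HD-MB03 to 19.7% with the missing gene, against 17.7% in UW228. MB002 had 4.65%, or 6.20% with the missing gene, and D425 had 17.2%, so these markers were better placed there than in UW228 with either choice. The lists hold 4 to 6 genes each, and no test was made.

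Outside the window, 5 genes had the best ranks most like those of *OTX2*, by the Euclidean distance of log10 rank over the 4 lines, with genes of equal rank in all 4 lines counted together. The 5 genes rest on 3 loci in the G3-MB lines, since *CCDC182* and *MSI2* had the same ranks there, as did *CCAT2* and *CASC8*. The nearest was *CCDC182*, with ranks 5 (MB002), 6 (D425), 13 (HD-MB03) and 11027 (UW228) and a distance of 0.624. *MSI2*, which encodes a Musashi RNA-binding protein, shared the G3-MB enhancers of *CCDC182* and had rank 4832 in UW228, with a distance of 0.846. Their relative input densities were 1.82 (MB002), 2.69 (D425) and 1.15 (HD-MB03), and the reason for their ranks was not tested. The lncRNA genes *CCAT2* and *CASC8* followed at distances of 0.867 and 0.999, with relative input densities of 46.4 (MB002), 136 (D425) and 118 (HD-MB03). *RBM5*, an RNA-binding protein gene, was the fifth at 1.32, with ratios of 22.5, 15.1 and 15.4 in the G3-MB lines. All 5 had an enhancer in UW228 and *OTX2* had none, and *OTX2* entered there with a rank of 1 past the last enhancer of the line.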

How the data were processed

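H3K27Ac ChIP-seq and input were measured in 4 lines, with 1 library of each kind per line. The submitters' processing notes name Bowtie2 2.3.0, SAMtools 1.9 and MACS2 2.2.6, and the authors stitched peaks with ROSE on GRCh38. Regions close to promoters were left out of the enhancers by the authors' definition. Some enhancers nevertheless span a start site, among them the D425 enhancer over *OTX2*, which is a single peak without stitching. The deposited signal of an enhancer is reads per bp, scaled to the mapped reads, multiplied by its length, for H3K27Ac and for input. The deposited score is the rank of an enhancer, which the authors took after subtracting input. The UW228 table was made at a later date and in another ROSE folder. Library depth is unknown.

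From these values the remainder, the ratio, the relative input density, the blocks and the gene assignments were computed in Python 3.11.15 (numpy 2.4.6; pandas 2.3.3), figures were drawn with matplotlib 3.10.9, and the scripts were tested on simulated data. Of 29853 curated RefSeq genes, 27337 had a strand in GENCODE 44 and were used. The text names the 6 genes, the protein-coding genes of the window, 14 regulators, marker genes and the 5 genes with the nearest ranks. Members and lists were chosen with earlier results of these data known. No test was run, because each line had 1 library. Alternatives of neighbours, thresholds and order were tried.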

Additional observations from a re-analysis of the deposited data

How the results depend on the processing

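Of 74 values under alternative settings, 59 stayed within 1.5-fold of the value reported and 15 did not, of which 6 were medians of gene lists or the share of the block and stand in the report. The 59 include the UW228 counts of block enhancers, SEs and genes with a SE, which were 0 under every setting and have no fold. Ordered by ratio, the *OTX2* enhancer was at place 7869 (MB002), 4777 (D425) and 3368 (HD-MB03), and ordered by signal minus input per bp it was at place 27 in HD-MB03. The *OTX2* ratio over that of its neighbours was 1.91 in MB002 with neighbours over a start site alone. It was 2.24 in MB002 with neighbours among the strongest of the block (its upper quartile of signal minus input), and 1.64 in D425 with all other enhancers of the window. With a threshold of 10, the HD-MB03 block held 0 enhancers, and by closest start site alone 1 of the 6 genes had a SE in HD-MB03. The cause was not tested. The upper-quartile and peak-coverage neighbours, the medians with missing genes and the share at a threshold of 3 were added after the data were seen. No neighbour was left in D425 over a start site or in the upper quartile, so these gave no value. No paired analysis was possible because each line had 1 library of each kind and nothing pairs one line with another. Depth is unknown, so counting error could not be given.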
